A study of Chlorocebus sabaeus with 10 samples.

Results

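The transcript levels of 8 hepatocyte identity transcription factors, FOXA1, FOXA2, FOXA3, CEBPA, CEBPB, ONECUT1, PROX1 and GATA4, were compared between livers of vervet monkeys fed a high fructose (HFr) diet and livers of monkeys fed chow. The members were picked by gene symbol from 28078 annotated transcripts of 23352 gene symbols, and each was represented by 1 transcript. Earlier results of these data were known when the members were chosen. All 10 monkeys (Chlorocebus sabaeus, an Old World primate) were female and had been kept on chow beforehand. For 6 weeks, 5 of them received the HFr diet (n = 5) and 5 remained on chow (n = 5). According to the paper, the assignment to diets was meant to balance age and body weight. In its clinical measures the HFr animals were still older on average, with a wide spread of age in both diets. Age was not a term in any fit here. A liver biopsy of each animal gave 1 polyadenylated RNA library.

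These factors hold the hepatocyte in its differentiated state by binding to enhancers and promoters of liver genes, where they act together and on each other's genes. The FOXA proteins are pioneer factors that open chromatin at such sites. CEBPA and CEBPB are leucine zipper proteins that control metabolic and acute phase genes, ONECUT1 (HNF6) and PROX1 are homeodomain factors of liver development and lipid and bile acid metabolism, and GATA4 is a zinc finger factor of early liver formation that is also made by liver endothelial and stellate cells. FOXA1, FOXA2 and ONECUT1 are also made by bile duct cells, and PROX1 by lymphatic endothelium. In RNA from a whole biopsy, fewer cells of a type and less RNA per cell cannot be told apart.

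The libraries held from 2977282 to 4992505 estimated counts, of which 864571 to 2657103 were on nuclear transcripts, because mitochondrial transcripts took from 34.7% to 73.6%. Chow replicates 4 and 5 were the animals with fewer than 1000000 nuclear counts. Of the 10 hepatocyte markers, all 10 were tested, and their summed level ran from 49414 to 73936 normalized counts on the HFr diet and from 41984 to 81911 on chow. The summed markers of other cells also overlapped between the diets. They ran from 15.2 to 55.9 (HFr) and 25.1 to 47.7 (chow) for cholangiocytes, from 584 to 768 and 494 to 796 for endothelial cells, and from 361 to 618 and 287 to 1113 for stellate cells and fibroblasts. For macrophages and myeloid cells they ran from 114 to 286 and 75.3 to 277, for lymphocytes from 77.0 to 559 and 188 to 735, for blood cells from 99.4 to 331 and 60.9 to 346, and for proliferation genes from 19.0 to 49.3 and 14.1 to 25.0. Of the markers tested in these lists, 0 of 3, 1 of 12 (KDR, higher), 1 of 10 (ACTA2, lower), 0 of 8, 0 of 5, 0 of 1 and 0 of 1 passed 0.05 by unadjusted p in edgeR, in the same order. Of the listed markers in the table, 1 of the stellate list was at 0 in all animals. Markers that did not pass the filter on low counts were read from a fit over the 16066 transcripts with a count in any animal, of which 4.71% passed 0.05 by unadjusted p in edgeR.

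Of 5 such proliferation genes in that fit, 3 passed 0.05 by unadjusted p, all higher on the HFr diet. FOXM1, a factor of cell cycle genes, ran from 2.97 to 9.24 normalized counts on the HFr diet and from 1.14 to 1.97 on chow, without overlap (log2 fold change 2.08, SE 0.39, unadjusted p = 2.3e-05, adjusted p = 0.125, edgeR). MKI67 and TOP2A, which mark dividing cells, had log2 fold changes of 1.64 (SE 0.52) and 1.71 (SE 0.63), with overlap. Of 7 cholangiocyte markers, 1 passed, the bile duct keratin gene KRT19 (log2 fold change -1.58, SE 0.63), with 0.454 to 3.52 normalized counts on the HFr diet and 0.552 to 15.1 on chow. Of 5 endothelial markers 2 passed, FCN3 (1.43, SE 0.56) and PDPN. PDPN was at 0 in all 5 HFr animals, and its median on chow was also 0, with at most 5 counts in a chow animal. The lymphocyte gene GZMA (at most 6 counts) did not overlap between the diets and did not pass. The share of transcripts without overlap was not computed for this fit. Among the 7948 transcripts that passed the filter it was 0.541%. No other marker that failed the filter passed 0.05 in this fit, and 0 markers passed by adjusted p. The part of dividing cells, bile duct cells and other cell types in the values below was not tested.

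FOXA1, FOXA2, FOXA3, CEBPB and PROX1 had enough counts to be tested, and the levels of all 5 overlapped between the diets. In the quasi-likelihood test of edgeR, 0 of these 5 members passed 0.05 by unadjusted or adjusted p, and DESeq2 also gave 0 of 5. Over all 7948 tested transcripts, 4.29% passed 0.05 by unadjusted p in edgeR (2.06% higher and 2.23% lower on the HFr diet), 0 by adjusted p in edgeR and 2 by adjusted p in DESeq2. FOXA3 and CEBPB were higher on average on the HFr diet, and FOXA1, FOXA2 and PROX1 were lower. The median log2 fold change was -0.09 over the 5 members and -0.00075 over all tested transcripts. CEBPA, ONECUT1 and GATA4 did not pass the filter on low counts and were given by their counts and by a fit over the 16066 transcripts with a count in any animal.

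**Figure D1:**
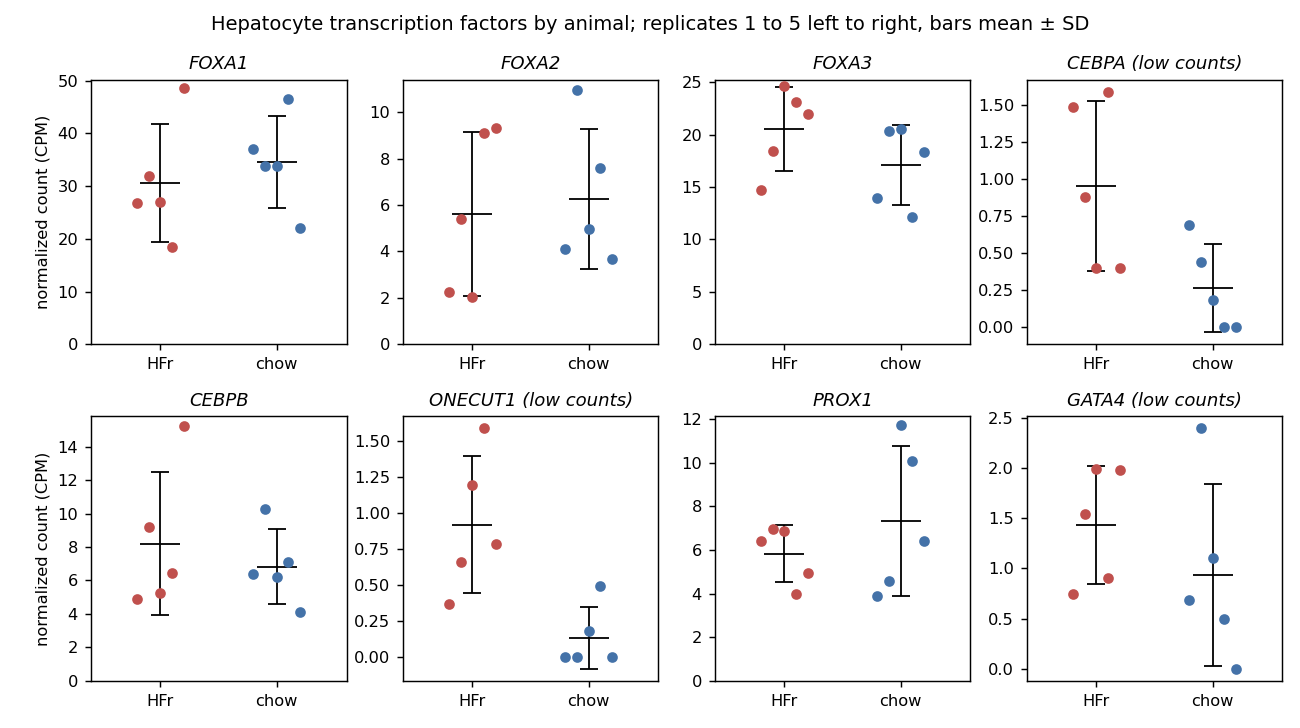
Normalized counts (CPM after TMM scaling, linear axes starting at or just below 0) of the 8 factors in 5 HFr and 5 chow animals, with replicates 1 to 5 from left to right in each diet and bars for the mean ± SD. The diets overlap for every factor, and the 3 panels marked as low counts reach at most 2.39.

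FOXA1, a pioneer factor on chromosome 24 of ChlSab1.1 from 14396702 to 14403095 (minus strand), had 26.8, 31.8, 27.0, 18.4 and 48.7 normalized counts in HFr replicates 1 to 5 and 37.0, 33.7, 33.7, 46.5 and 22.1 in chow replicates 1 to 5. A normalized count (CPM) is the estimated count per 1000000 counts of the library, whose size was scaled with the TMM factors of edgeR (trimmed mean of M values). The HFr diet held both the highest and the lowest animal, and 4 of 5 chow animals lay above the HFr mean. The means were 30.5 ± 11.2 and 34.6 ± 8.75 (SD, n = 5 each), which gave a log2 fold change of -0.17 (SE, the standard error, 0.25, 95% interval -0.71 to 0.37, unadjusted p = 0.503, adjusted p = 0.9996, edgeR). The lowest animal, HFr replicate 4, rested on 83 estimated counts (95% Poisson interval 14.7 to 22.9, counting error only) and the highest, HFr replicate 5, on 246 (42.8 to 55.1). Without HFr replicate 5 the log2 fold change was -0.41 (unadjusted p = 0.0929 from edgeR). Without HFr replicate 4 it was -0.04 (unadjusted p = 0.876 from edgeR).

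FOXA2, which acts with FOXA1 in liver specification and controls bile acid and lipid genes in the adult liver, lies on chromosome 2 from 51577833 to 51580298 (minus strand). It had 2.26, 5.38, 2.02, 9.11 and 9.30 normalized counts on the HFr diet and 4.11, 10.95, 4.95, 7.58 and 3.68 on chow. HFr replicates 1 and 3 lay below every chow animal and chow replicate 2 above every HFr animal, and the other 7 animals lay in the range that the diets shared. The lowest animal, HFr replicate 3, rested on 5 estimated counts (95% Poisson interval 0.655 to 4.71) and the highest, chow replicate 2, on 50 (8.13 to 14.4). The log2 fold change was -0.09 (SE 0.43, 95% interval -1.02 to 0.83, unadjusted p = 0.829 from edgeR). Its sign turned to 0.24 without chow replicate 2 and to 0.08 without HFr replicate 1 or 3.

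FOXA3, the FOXA factor most tied to adult glucose and lipid metabolism, lies on chromosome 6 from 39310108 to 39320096 (plus strand). It had 14.7, 18.4, 24.6, 23.1 and 21.96 normalized counts on the HFr diet and 13.9, 20.4, 20.5, 12.1 and 18.4 on chow. HFr replicates 3, 4 and 5 stood above every chow animal, and HFr replicates 1 and 2 stood among them. The means were 20.6 ± 3.998 and 17.1 ± 3.84 (SD, n = 5 each), with a log2 fold change of 0.26 (SE 0.20, 95% interval -0.18 to 0.69, unadjusted p = 0.226 from edgeR). It varied least of the 5 tested members, with a coefficient of variation within diets of 20.8%, beside a median of 27.1% over all tested transcripts. The other members had 30.9% (FOXA1), 39.4% (PROX1), 45.4% (CEBPB) and 55.5% (FOXA2).

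CEBPB, the C/EBP factor of the acute phase and of gluconeogenic genes, lies on chromosome 2 from 13781160 to 13782195 (minus strand). It had 4.90, 9.20, 5.24, 6.44 and 15.2 normalized counts on the HFr diet and 6.40, 10.3, 6.24, 7.08 and 4.14 on chow. HFr replicate 5 was the highest of the 10 animals, with 77 estimated counts and a 95% Poisson interval from 12.0 to 19.0 that lay above the values of all other animals. The log2 fold change was 0.28 (SE 0.33, 95% interval -0.44 to 0.996, unadjusted p = 0.417 from edgeR). It was -0.08 without HFr replicate 5, so its direction rested on that animal.

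PROX1, a homeodomain factor that restrains bile acid synthesis and lipid metabolism genes, lies on chromosome 25 from 15538964 to 15587060 (minus strand). It had 6.41, 6.95, 6.86, 3.999 and 4.95 normalized counts on the HFr diet and 3.88, 4.60, 11.7, 10.1 and 6.43 on chow. Chow replicates 3 and 4 stood above all other animals, and all 5 HFr animals lay below the chow mean of 7.35 ± 3.44 (SD, n = 5). The log2 fold change was -0.34 (SE 0.33, 95% interval -1.04 to 0.37, unadjusted p = 0.321 from edgeR). Without chow replicate 3 it was -0.05.

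**Figure D2:**
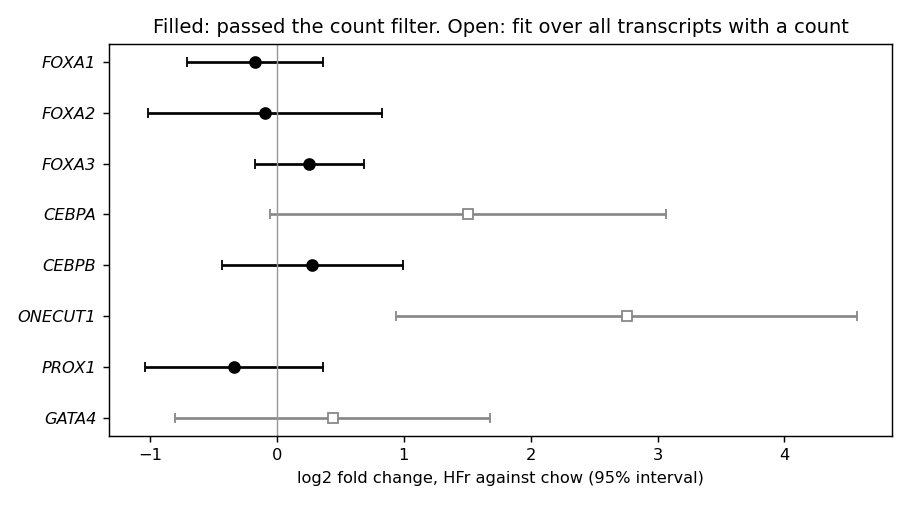
Log2 fold change of each factor (HFr against chow, x axis, with 95% intervals from edgeR), for members that passed the count filter (filled) and for those fitted only among all transcripts with a count (open). The intervals of the 5 tested members include 0, and that of ONECUT1, from 0.94 to 4.57, does not.

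ONECUT1, an activator of liver development and glucose metabolism genes on chromosome 26 from 30610161 to 30643381 (plus strand), was near the limit of detection. It had 1, 3, 3, 7 and 4 estimated counts in HFr replicates 1 to 5 and 0, 0, 1, 1 and 0 in chow replicates 1 to 5, or 18 against 2 in all. Every HFr animal had a count and 2 of 5 chow animals did. As normalized counts these were 0.372, 0.660, 1.19, 1.59 and 0.790 on the HFr diet, and 0.184 and 0.493 in chow replicates 3 and 4. HFr replicate 1 lay below chow replicate 4, so the diets overlapped. A count of 0 allows up to 0.685, 0.653 and 1.36 normalized counts in chow replicates 1, 2 and 5 (3 counts per library, counting error only), which reaches into the HFr range.

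The ratio of the summed ONECUT1 counts, scaled by library size, was 8.73 (95% exact interval 2.09 to 77.5, counting error only). In the fit over all transcripts with a count, the log2 fold change was 2.76 (SE 0.88, unadjusted p = 0.00462, adjusted p = 0.838, edgeR), a value that depends on how counts of 0 are treated. In the same fit 4.71% of the transcripts passed 0.05 by unadjusted p, as did 1 of the 8 members. A two-sided exact permutation test on log2(normalized count + 1) gave p = 0.0159 (n = 5 each). The unadjusted p from edgeR or DESeq2 was between 0.00228 and 0.0269 under the 16 alternatives run for this gene, and the adjusted p from 0.625 to 0.9999. Without chow replicates 4 and 5, the animals of lowest nuclear depth, the log2 fold change was 3.29.

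CEBPA, the C/EBP factor that sustains metabolic genes of the quiescent hepatocyte, lies on chromosome 6 from 28343907 to 28344978 (minus strand). It had 4, 4, 1, 7 and 2 estimated counts on the HFr diet and 3, 2, 1, 0 and 0 on chow, or 18 against 6 in all. The chow mean of 0.261 normalized counts was exceeded in each of the 5 HFr animals, and the diets overlapped. The chow animals without a count were replicates 4 and 5, where a count of 0 allows up to 1.48 and 1.36 normalized counts, close to the highest HFr value of 1.59. The log2 fold change in the fit over all transcripts with a count was 1.51 (SE 0.75, unadjusted p = 0.0579, adjusted p = 0.838, edgeR), and 1.11 without chow replicates 4 and 5. Over its 16 alternatives the unadjusted p from edgeR or DESeq2 ran from 0.0280 to 0.181, and it was under 0.05 in 3, which left out chow replicate 1 (0.0280), HFr replicate 5 (0.0377) or HFr replicate 3 (0.0462).

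The C/EBP factors CEBPA and CEBPB have genes without introns, with listed spans of 1071 and 1035 bases. Per kilobase of listed span, the estimated counts summed over the 10 animals were 22.4 for CEBPA and 295 for CEBPB, a 13.2-fold difference. Whether the listed spans cover the whole transcripts, and whether reads fell outside them, was not tested. The difference therefore holds only for counts within the listed spans. The levels of the other members were not compared with each other, because their exon lengths were not used here.

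GATA4, on chromosome 8 from 7349660 to 7400563 (minus strand), had 2, 7, 5, 4 and 10 estimated counts on the HFr diet and 3, 11, 6, 1 and 0 on chow. The highest normalized count, 2.39, was in chow replicate 2 and the HFr animals lay between 0.743 and 1.99, so the diets overlapped. The log2 fold change in the fit over all transcripts with a count was 0.44 (SE 0.60, 95% interval -0.80 to 1.68, unadjusted p = 0.471 from edgeR). It was 1.08 without chow replicate 2 and 0.05 without chow replicates 4 and 5.

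The members were next compared with each other across animals. Of the 10 pairs of tested members, FOXA2 and CEBPB varied together most, followed by FOXA1 and CEBPB. For FOXA2 and CEBPB, Pearson's r of log2(normalized count + 1) over the 10 animals was 0.73 (permutation p = 0.0147, adjusted over the pairs 0.147) and Spearman's rho was 0.88 (permutation p = 0.00139, adjusted 0.0139). Pearson's r was 0.79 after subtraction of the diet means and 0.76 over the 8 animals with over 1000000 nuclear counts. It was 0.68 without HFr replicate 3 and chow replicate 2, the animals farthest from the FOXA2 median. Spearman's rho was not recomputed in these ways. For FOXA1 and CEBPB, r was 0.64 (permutation p = 0.0435, adjusted 0.217) and rho 0.59 (permutation p = 0.0797, adjusted 0.398), and r was 0.60 without HFr replicates 4 and 5. The other 8 pairs had r between -0.38 and 0.32, and FOXA1 and FOXA3 were the lowest of them.

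The members were also set against the share of mitochondrial counts and the nuclear depth, in 10 relations, of which 0 had an adjusted p under 0.05. Over the 10 animals r with the mitochondrial percent was -0.69 for CEBPB (permutation p = 0.0265, adjusted over 10 relations 0.254, rho -0.53, permutation p = 0.122, adjusted 0.385) and -0.46 for FOXA2 (permutation p = 0.176, adjusted 0.352, rho -0.44, permutation p = 0.204, adjusted 0.408). Without HFr replicate 2 and chow replicate 2, r was -0.58 for CEBPB and -0.28 for FOXA2. Without chow replicates 4 and 5 it was -0.72 for CEBPB and -0.66 for FOXA2. With log2 nuclear counts r was 0.62 for CEBPB (permutation p = 0.0508, adjusted 0.254, rho 0.49, permutation p = 0.154, adjusted 0.385) and 0.51 for FOXA2 (permutation p = 0.129, adjusted 0.352, rho 0.54, permutation p = 0.112, adjusted 0.385), and without chow replicates 4 and 5 it was 0.63 and 0.78. The part of nuclear depth and of the mitochondrial share in the shared variation of FOXA2 and CEBPB was not tested.

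**Figure D3:**
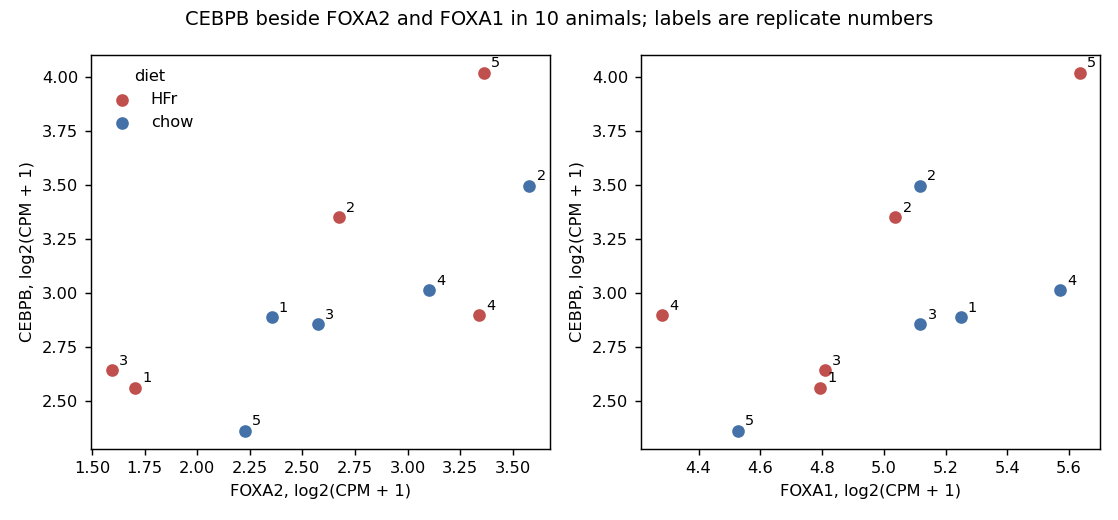
CEBPB (y axes) beside FOXA2 (left) and FOXA1 (right), all as log2(CPM + 1), in 5 HFr (red) and 5 chow (blue) animals labelled by replicate number. CEBPB rises with FOXA2 across both diets (r = 0.73), and HFr replicate 5 is the highest animal for CEBPB and FOXA1.

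The transcripts whose pattern was most like each member were named from 7163 others with a gene symbol, by Pearson's r over the 10 animals, as a description. For FOXA1 they were AP5M1 (0.92), ARFGEF2 (0.91) and CD164 (0.87), the first 2 of which act in vesicle traffic. For FOXA2 they were ACSM1 (0.95), a mitochondrial acyl-CoA synthetase, TNN (0.93) and SAMD4B (0.92). For FOXA3 they were PPP6R1 (0.91), CPNE2 (0.88) and PREB (0.87), a factor of transport from the endoplasmic reticulum. For CEBPB they were SRRM2 (0.96), a splicing protein of nuclear speckles, ATXN2L (0.93) and RRP36 (0.92). For PROX1 they were ERLIN1 (0.91), PSMD14 (0.91), a proteasome subunit, and LSM4 (0.89).

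Other transcription factors of the hepatocyte network were read from a list of 45, of which 42 were in the table and 24 passed the filter. The HFr diet had the higher level for 12 and the lower for 12, with a median log2 fold change of 0.01. By unadjusted p 1 passed 0.05 in edgeR (4.17%, against 4.29% of all tested transcripts), and by adjusted p 0 did. That factor was ESRRA, a nuclear receptor of mitochondrial metabolism, with 35.0, 45.3, 33.1, 42.7 and 39.2 normalized counts on the HFr diet and 29.2, 27.6, 32.1, 29.3 and 22.1 on chow. It was the 1 factor of the list without overlap between the diets, which held for 0.541% of all tested transcripts (log2 fold change 0.47, standard error 0.16, unadjusted p = 0.0103, adjusted p = 0.9996, edgeR).

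HNF4A, the nuclear receptor at the centre of this network, had 196 ± 37.5 normalized counts on the HFr diet and 218 ± 53.6 on chow (SD, n = 5 each), with a log2 fold change of -0.15 (SE 0.21, 95% interval -0.60 to 0.30). HNF4G, its relative, had a log2 fold change of -0.06 (SE 0.28). GATA6, the relative of GATA4, had a log2 fold change of -0.18 (SE 0.48) and ran from 8.51 to 39.5 normalized counts on the HFr diet and from 8.09 to 52.8 on chow. CEBPG had at most 14 estimated counts, ONECUT2 and GATA5 at most 1, and CEBPE and ONECUT3 were at 0 in all animals. XBP1 (-0.20, standard error 0.36), ATF5 (0.11, standard error 0.35) and NR1H4, the bile acid receptor (-0.27, standard error 0.18), were the other highest factors by mean level.

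**Figure D4:**
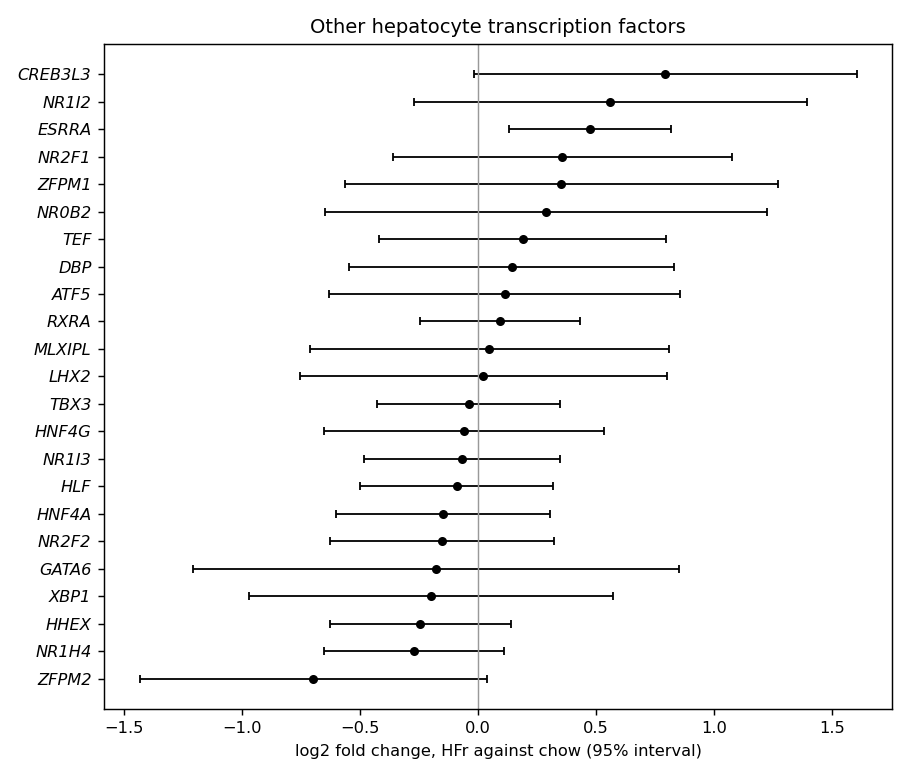
Log2 fold change (HFr against chow, x axis, with 95% intervals from edgeR) of 23 of the 24 tested transcription factors of the list, in order of their value. The interval of ESRRA, from 0.13 to 0.82, lies above 0, and the other 22 include it.

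Genes that hepatocytes express under these factors were read from a list of 30, all but 1 of which were in the table. All 29 were tested, 20 with the higher and 9 with the lower level on the HFr diet, beside 49.8% higher over all tested transcripts. Their median log2 fold change was 0.14, against -0.00075 over all tested transcripts, and 0 passed 0.05 by unadjusted p in edgeR. The log2 fold changes were -0.18 (SE 0.33) for ALB, the serum albumin gene and a classical target of FOXA and C/EBP factors, 0.14 (SE 0.29) for APOA1, 0.04 (SE 0.28) for SERPINA1 and 0.37 (SE 0.24) for TF, the transferrin gene. Of the acute phase genes under C/EBP control, 11 of 18 were tested, and 9 of these were higher and 2 lower (median 0.17, 0 past 0.05 by unadjusted p in edgeR). C3, ITIH4, FGB and FGA, the highest of them, had log2 fold changes of 0.08, 0.17, 0.33 and 0.03 (SE 0.28, 0.26, 0.38 and 0.40). FGA, FGB and FGG were counted in both lists. The 3 acute phase genes that did not pass the filter were all lower on the HFr diet in the fit over all transcripts with a count. LCN2, IL1RN and SOCS3 had log2 fold changes of -0.34, -1.57 and -1.66 there (SE 0.59, 0.97 and 1.01). Of these 3, 0 passed 0.05 by unadjusted p in edgeR.

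The direction of each member was recomputed under other tests, scalings, filters and terms and with each animal left out. FOXA1, FOXA3, PROX1, CEBPA, ONECUT1 and GATA4 kept their direction in every alternative run for them (25, 25, 25, 16, 16 and 16). FOXA2 turned in 3 of 24 and CEBPB in 1 of 24, all of which left out 1 animal.

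**Figure D5:**
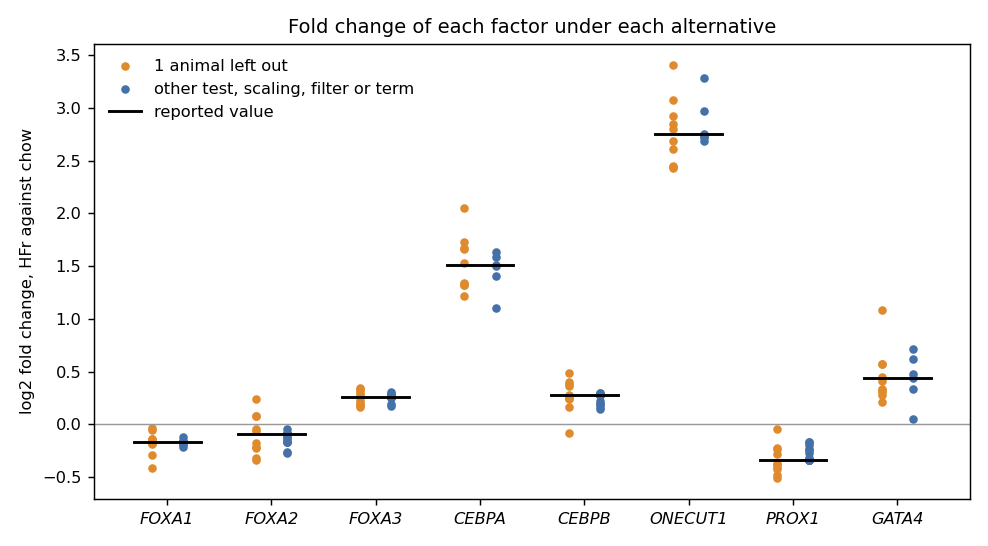
Log2 fold change of each factor (HFr against chow, y axis) as reported (black line), with 1 animal left out (orange points) and with another test, scaling, filter or model term (blue points). The points of FOXA2 and CEBPB lie on both sides of 0, and those of ONECUT1 lie between 2.43 and 3.41.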

How the data were processed

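RNA-Seq was performed on liver biopsies of 10 female vervet monkeys, 5 per diet. Paired reads of 100 bases were aligned by the authors (STAR 2.5.3a per the submitters' processing notes) to the ChlSab1.1 build, and Partek Flow estimated counts for each Ensembl 93 transcript with its expectation-maximization step. These estimated counts were deposited as they were, not normalized. The deposited normalized signal values are these counts scaled by the authors with TMM. Coordinates are as listed, with the stop excluded. Chow animals are the control samples.

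Counts were rounded, filtered with filterByExpr (minimum count 10, minimum total 15) and compared with edgeR 4.0.16 (quasi-likelihood test, TMM, diet as the only term). P-values were adjusted by Benjamini-Hochberg over all tested transcripts, with a threshold of 0.05. Single values and correlations (pseudocount 1) were tested with exact or 100000-resample permutations, two-sided. Alternatives used DESeq2 1.42.0, limma 3.58.1 with a pseudocount of 1 or 0.1, other scalings and filters, counts not rounded or summed by gene, a replicate block, mitochondrial terms and each animal left out, in R 4.3.3. The edgeR fit of the transcripts that passed the filter was tested on counts simulated from its own estimates of level and spread. The fit over all transcripts with a count, the permutations and the correlations were not tested in this way. The members and gene lists were chosen with earlier results of these data known. All members were named. From the lists of other factors, hepatocyte products and acute phase genes, those under an unadjusted p of 0.05 or without overlap, the 4 highest by mean level and relatives of the members were named. Acute phase genes that did not pass the filter were also named. CREB3L3 and ZFPM2 were named outside this rule, after their values were seen. Marker lists are given as counts and ranges, and the markers named were chosen after their values were seen. The values of 2 listed factors are not reported here, although both are counted in the list totals. Intervals on counts cover counting error only. The labels do not say more of the replicates than that they are separate animals.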

Additional observations from a re-analysis of the deposited data

How the results depend on the processing

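No member had an adjusted p under 0.05 in any alternative that gave one. With 1 animal left out, log2 fold changes ran from -0.41 to -0.04 for FOXA1, from -0.34 to 0.24 for FOXA2, from 0.16 to 0.34 for FOXA3, from -0.079 (without HFr replicate 5) to 0.49 for CEBPB, from -0.51 to -0.05 for PROX1, from 1.22 to 2.05 for CEBPA, from 2.43 to 3.41 for ONECUT1 and from 0.21 to 1.08 for GATA4. For CEBPA, ONECUT1 and GATA4 the alternatives were chosen after the data were seen, as was the fit without the animals under 1000000 nuclear counts. The number of the 5 tested members with an unadjusted p under 0.05 was 0 throughout. Over all tested transcripts that number was 341, and 123 with library size only, 756 when every transcript with a count was tested (16066), 806 and 726 with limma at a pseudocount of 1 and 0.1 (16105 each), and from 260 to 408 with 1 animal left out. Requiring 10 counts in every animal left 3 of the 5 members. Same-numbered animals were not alike in their deviations from the diet mean (correlations from -0.29 to 0.10, with 0 of 5 highest for their own number). This check cannot show whether the numbers pair the animals in another way. The replicate block gave 271 transcripts and log2 fold changes of -0.22 for FOXA1, -0.28 for FOXA2, 0.26 for FOXA3, 0.16 for CEBPB and -0.24 for PROX1. Counts of at most 11 per animal limit what can be said of CEBPA, ONECUT1 and GATA4.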

Other observations

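CUX2, a cut homeobox factor related to ONECUT1, was singled out after its values were seen. It did not pass the filter, with 2 to 29 estimated counts per animal. In the fit over all transcripts with a count it had 1.64 ± 0.556 normalized counts on the HFr diet and 3.52 ± 1.85 on chow (SD, n = 5 each), with all 5 HFr animals below the chow mean and the diets overlapping. The log2 fold change of CUX2 was -1.14 (SE 0.43, unadjusted p = 0.0149, adjusted p = 0.838, edgeR). Of the tested factors, CREB3L3, an activator of fasting genes, stood at 0.79 (SE 0.38, unadjusted p = 0.0545 from edgeR), and ZFPM2, a cofactor of GATA4, at -0.70 (SE 0.34, unadjusted p = 0.0611 from edgeR). CREB3L3 and ZFPM2 were also singled out after their values were seen.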
